A study of Homo sapiens with 18 samples.

Results

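RAD21, SMC1A, SMC3, STAG1 and STAG2 encode the subunits of the cohesin ring. Their 5 rows were taken by gene symbol, whatever their values, from a table of 23399 genes measured in all 8 groups of the study. The 5 genes were all among the 14993 genes with a mean of at least 1 eRPKM that were tested. eRPKM is the number of exonic reads scaled to the length of the transcript and to the number of mapped reads (RPKM over exons), so that levels can be compared between genes as well as between libraries.

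Cohesin is a ring that encircles DNA, holds sister chromatids together from replication to mitosis and forms chromatin loops. SMC1A and SMC3 are long coiled-coil ATPases that pair at a hinge, and RAD21, the kleisin subunit, closes the ring by joining their ATPase heads. STAG1 or STAG2 binds to RAD21, so that each complex contains either of these alternative subunits, and separase opens the ring in mitosis by cutting RAD21.

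The libraries came from U2OS-MycER cells, a human osteosarcoma cell line engineered to express a fusion of Myc with the estrogen receptor, which 4-hydroxytamoxifen (OHT) activates. All 8 groups carry this fusion. Cells were transfected with siRNAs against RAD21 (siRAD21) or with a control siRNA against Renilla luciferase (siCtrl), received 400 nM OHT or the solvent ethanol at the same moment, and were collected 24 or 48 h later. The siCtrl and siCtrl OHT groups at 48 h have 3 libraries each and the other 6 groups have 2. The methods of the study speak of 2 biological replicates and do not say how the further library of these groups was obtained, so that p-values measure the spread between these libraries, which may be technical.

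The 18 libraries held 9647501 to 12678599 reads. The siRAD21 OHT libraries at 48 h differed by about the sampling noise of their reads, with a chi-square per gene of 0.9786 (z = -1.6) against 1.044 to 4.239 in the other pairs. Allowing for the smaller noise that duplicate removal leaves, the value was 1.030 (z = 2.3), slightly above noise and still the lowest of the pairs. They were counted as 1 sample, with no SD, in the means below, and the values of both are given. The main limma fit used them as 2 samples, so its SEs and p-values for comparisons with this group do not treat them as 1. The siRAD21 libraries at 24 h, at 1.044 (z = 3.3), were kept as 2 samples throughout. The markers of mesenchymal cells fixed for U2OS (VIM, SPARC, COL1A1, FN1 and RUNX2) were all present, with a summed level of 218 to 322 eRPKM. The 3 leukocyte markers were below 1 eRPKM in every library, the endothelial markers summed to 0.584 to 1.78 eRPKM, and among the epithelial markers KRT19 was at 0 everywhere while the 3 together reached at most 14.2 eRPKM. The levels of these markers differed with OHT, as given with the comparisons of OHT. Among 6 tested genes chosen to follow OHT, ODC1, NCL, NPM1, CAD and FBL rose in siCtrl cells at 48 h and MYC fell, by 0.22 on the log2 scale. There 53.3% of all genes had an adjusted p below 0.05 in either direction. At 24 h in siCtrl cells 1 of the 6 was higher and 1 lower by this threshold (26.5% of all genes passed). In siRAD21 cells at 24 h 5 were higher and 1 lower (35.2% of all genes passed). The MYC row may also hold reads of the Myc fusion, which cannot be told apart from those of the cell's own gene. In libraries made from whole cultures, fewer cells of a type and less RNA per cell cannot be told apart.

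SMC1A, SMC3 and STAG1 were higher with OHT in RAD21-depleted cells at 48 h, as described further on. For SMC3 and STAG1, with 1 promoter window listed for each, the 250 bases before their start sites are shown 5′ to 3′ on the strand of the gene. They come from RefSeq on GRCh38.p14, at chr10:110567445-110567694 for SMC3 and chr3:136752379-136752628 for STAG1. Capitals mark the GC box (GGGCGG, read on both strands) and the CCAAT box (likewise, so that it may appear as ATTGG).
SMC3: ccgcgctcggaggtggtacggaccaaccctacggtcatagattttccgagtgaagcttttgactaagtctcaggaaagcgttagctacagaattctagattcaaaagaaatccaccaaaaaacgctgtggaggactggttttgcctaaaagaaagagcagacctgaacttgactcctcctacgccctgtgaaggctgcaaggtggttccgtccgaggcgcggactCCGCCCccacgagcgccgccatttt
STAG1: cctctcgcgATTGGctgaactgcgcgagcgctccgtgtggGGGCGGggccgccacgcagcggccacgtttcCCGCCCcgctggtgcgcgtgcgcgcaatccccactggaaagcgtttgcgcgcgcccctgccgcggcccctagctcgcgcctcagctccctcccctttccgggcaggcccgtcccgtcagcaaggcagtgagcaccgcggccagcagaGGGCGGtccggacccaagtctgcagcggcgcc
Neither window contains the E-box CACGTG, the motif that Myc with its partner MAX prefers, and nor do the 2 windows listed for SMC1A or the 3 for STAG2. No window was listed for RAD21, so its promoter was not examined. The E-box is found in 6.34% of 35116 windows of this length, the GC box in 42.6% and the CCAAT box in 32.0%. The SMC3 window holds a GC box without a CCAAT box, and the STAG1 window holds both.

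On GRCh37, the genes lie at chr8:117858173-117887015 (RAD21, minus strand), chrX:53401070-53449677 (SMC1A, minus strand), chr10:112327442-112365806 (SMC3, plus strand), chr3:136055078-136471245 (STAG1, minus strand) and chrX:123094062-123556514 (STAG2, plus strand). The values sum reads over the exons of each gene, from 3750 bases for RAD21 to 10084 bases for SMC1A, as recovered from the table. The library kit does not mark strand, so reads in exons that overlap another gene cannot be assigned. Overlaps were taken from the GENCODE annotation, where the exons of RAD21 cover 14382 bases, more than were counted. There the exons of RAD21 share 576 bases with UTP23 and 271 bases with RAD21-AS1, those of STAG1 share 1661 bases with PCCB, those of STAG2 share 241 bases with TENM1 and those of SMC1A share 39 bases with RIBC1. How much of this overlap lies in the exons that were counted was not determined.

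RAD21 was the gene targeted by the siRNAs, and its level was low in every library labelled siRAD21. In siCtrl cells RAD21 was at 72.2 and 69.3 eRPKM at 24 h and at 93.3, 96.9 and 89.0 eRPKM at 48 h. With OHT it was at 66.4 and 71.0 eRPKM at 24 h and at 89.1, 96.3 and 96.2 eRPKM at 48 h. In these control cells RAD21 was the most abundant of the 5 mRNAs.

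In siRAD21 cells RAD21 was at 18.1 and 18.6 eRPKM at 24 h and at 11.2 and 11.3 eRPKM at 48 h. In siRAD21 cells with OHT it was at 15.8 and 15.5 eRPKM at 24 h and at 11.1 in both libraries at 48 h. The 8 siRAD21 libraries, at 18.6 eRPKM or less, were far from the 10 siCtrl libraries, at 66.4 eRPKM or more.

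RAD21 fell in all 4 comparisons, with a log2 fold change of -1.92 ± 0.051 (SE) at 24 h (limma, adjusted p = 4.38e-11) and of -2.99 ± 0.047 at 48 h (adjusted p = 2.84e-14). With OHT the log2 fold change was -2.09 ± 0.051 at 24 h (adjusted p = 1.31e-11) and -3.02 ± 0.047 at 48 h (adjusted p = 2.49e-14). As deposited, the RAD21 mRNA left was 26.0% of the control level at 24 h, 22.8% at 24 h with OHT, 12.1% at 48 h and 11.8% at 48 h with OHT.

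The depletion was deeper at the later time. The effect of siRAD21 at 48 h exceeded that at 24 h by a log2 difference of -1.08 ± 0.069 (adjusted p = 5.34e-07), and with OHT by -0.93 ± 0.069 (adjusted p = 3.08e-06). RAD21 was the only subunit called in these comparisons as a DEG, which the study defined by a log2 fold change past 0.5 in either direction together with an adjusted p under 0.05, a call that 10.7% of all genes met without OHT and 6.46% with OHT. Both the lower level in siRAD21 cells and the higher level in siCtrl cells at 48 h enter this difference, since RAD21 rose by 0.39 ± 0.047 from 24 to 48 h in siCtrl cells (adjusted p = 1.99e-05) and by 0.45 ± 0.047 in siCtrl OHT cells (adjusted p = 9.75e-06).

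Because PCR duplicates were removed before counting, abundant genes have a ceiling, set by the number of positions and strands at which a read can start. RAD21 reads filled 45.4 to 48.5% of these start sites in siCtrl cells at 48 h and 5.77 to 6.09% in siRAD21 cells. With the removal of duplicates undone by calculation, the RAD21 mRNA left was 21.3% at 24 h, 18.7% at 24 h with OHT, 9.21% at 48 h and 9.07% at 48 h with OHT. The other 4 subunits filled at most 29.6% of their start sites.

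The genes next to RAD21 changed less than RAD21 did. UTP23, a ribosome biogenesis factor whose exons overlap those of RAD21 on the opposite strand, had a log2 fold change of 0.00 ± 0.045 in siRAD21 cells at 48 h (adjusted p = 0.972), with libraries at 20.0 and 20.8 eRPKM against 19.9, 21.7 and 19.6. It fell by 0.19 at 24 h (adjusted p = 0.0116) and rose by 0.18 ± 0.045 at 48 h with OHT (adjusted p = 0.00490). EIF3H, a translation initiation factor subunit encoded nearby, had one of -0.14 ± 0.061 (adjusted p = 0.0679). RAD21-AS1, the antisense gene with 9 to 41 reads per library, fell by 0.55 ± 0.13 (adjusted p = 0.00279) and with OHT by 0.94 ± 0.13 (adjusted p = 5.27e-05), and its reads cannot be told apart from those of RAD21 in the shared bases.

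SMC1A, the ATPase that pairs with SMC3, was the subunit other than RAD21 that passed the test with siRAD21 at both times, and it was higher in every siRAD21 group than in its control. In siCtrl cells SMC1A was at 19.1 and 20.3 eRPKM at 24 h and at 23.0, 23.1 and 24.4 eRPKM at 48 h. In siCtrl OHT cells it was at 21.0 and 18.6 eRPKM at 24 h and at 22.3, 22.8 and 23.1 eRPKM at 48 h. These 10 control libraries span a narrow range, from 18.6 to 24.4 eRPKM.

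In siRAD21 cells SMC1A was at 28.2 and 27.7 eRPKM at 24 h and at 27.1 and 27.9 eRPKM at 48 h. In siRAD21 OHT cells it was at 30.6 and 28.3 eRPKM at 24 h and at 32.4 and 31.7 eRPKM at 48 h. The lowest of the 8 siRAD21 libraries, at 27.1 eRPKM, was above the highest of all the siCtrl libraries.

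SMC1A rose by a log2 fold change of 0.50 ± 0.057 at 24 h (limma, adjusted p = 2.66e-05), which is 1.41-fold with a 95% interval of 1.29 to 1.54. With OHT it rose by 0.56 ± 0.057 at 24 h (adjusted p = 1.17e-05) and by 0.49 ± 0.052 at 48 h (adjusted p = 4.43e-06). The rise at 48 h without OHT was smaller, at 0.22 ± 0.052 (adjusted p = 0.00241).

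Of these, the rise at 24 h with OHT was past the threshold for a DEG, and those at 24 h and at 48 h with OHT were just below it. Over the 4 comparisons the mean rise of SMC1A was 0.44 ± 0.027 (adjusted p = 5.75e-09). SMC1A was among the 920 genes (6.14%) with an adjusted p below 0.05 and a higher level in all 4 siRAD21 comparisons, and 8.88% of tested genes had a larger mean rise. In siCtrl cells SMC1A also rose from 24 to 48 h, by 0.25 ± 0.052 (adjusted p = 0.00165), and with OHT by 0.20 ± 0.052 (adjusted p = 0.00876, but 0.162 without siCtrl OHT 24 h replicate 2 and 0.0524 with only the groups compared).

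The smaller rise at 48 h was tested as a difference of effects. The effect of siRAD21 on SMC1A at 48 h was below that at 24 h by a log2 difference of -0.27 ± 0.078 (adjusted p = 0.0220), and leaving out any of 4 libraries (siCtrl 24 h replicate 1, siRAD21 24 h replicate 1 or 2, siRAD21 48 h replicate 1) gave adjusted p-values of 0.0532 to 0.0795. With OHT the difference was -0.077 ± 0.078, with a 95% interval of -0.24 to 0.090.

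SMC3, the partner ATPase, stayed within a narrow band outside the siRAD21 group at 48 h without OHT. In siCtrl cells it was at 46.7 and 45.6 eRPKM at 24 h and at 44.6, 46.5 and 43.3 eRPKM at 48 h. In siCtrl OHT cells it was at 48.0 and 46.6 eRPKM at 24 h and at 43.6, 46.8 and 48.6 eRPKM at 48 h. No order among these groups can be drawn, since each overlapped its neighbour in level.

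In siRAD21 cells SMC3 was at 46.1 and 44.5 eRPKM at 24 h and at 37.9 and 38.8 eRPKM at 48 h. In siRAD21 OHT cells it was at 47.4 and 48.5 eRPKM at 24 h and at 47.4 and 49.1 eRPKM at 48 h. The siRAD21 libraries at 48 h were the lowest 2 of all 18 for this gene and did not overlap any other group.

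SMC3 fell by 0.22 ± 0.046 on the log2 scale in siRAD21 cells at 48 h (limma, adjusted p = 0.000886), to 0.858 of the control level with a 95% interval of 0.801 to 0.918. After quantile normalization its log2 fold change was -0.12 (adjusted p = 0.0172). The change passed the test in no other siRAD21 comparison. The 95% interval of the log2 fold change was -0.13 to 0.082 at 24 h, -0.089 to 0.13 at 24 h with OHT and -0.040 to 0.16 at 48 h with OHT.

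STAG1 and STAG2 are the alternative subunits that bind RAD21. STAG1 was at 22.2 and 23.8 eRPKM in siCtrl cells at 24 h and at 21.8, 23.3 and 22.2 eRPKM at 48 h, and with OHT at 23.5 and 23.4 eRPKM at 24 h and at 21.3, 22.3 and 22.6 eRPKM at 48 h. In siRAD21 cells it was at 24.9 and 25.6 eRPKM at 24 h and at 22.2 and 21.5 eRPKM at 48 h, and with OHT at 24.5 and 23.6 eRPKM at 24 h and at 26.5 and 25.3 eRPKM at 48 h. The siRAD21 OHT libraries at 48 h were above all 10 siCtrl libraries, while those of siRAD21 cells at 48 h overlapped their control.

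STAG1 rose by 0.23 ± 0.045 in siRAD21 OHT cells at 48 h (limma, adjusted p = 0.000946). Its log2 fold change was 0.13 ± 0.049 at 24 h (adjusted p = 0.0695, but 0.0409 without siCtrl 24 h replicate 2 and 0.0223 after quantile normalization), 0.037 ± 0.049 at 24 h with OHT (adjusted p = 0.693) and -0.038 ± 0.045 at 48 h (adjusted p = 0.490). The mean over the 4 comparisons, 0.089 ± 0.024, passed the test (adjusted p = 0.00469), as did 62.5% of all genes.

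STAG2 was at 24.5 and 27.1 eRPKM in siCtrl cells at 24 h and at 29.2, 31.5 and 28.4 eRPKM at 48 h, and with OHT at 25.6 and 24.6 eRPKM at 24 h and at 26.9, 30.4 and 28.0 eRPKM at 48 h. In siRAD21 cells it was at 26.6 and 28.0 eRPKM at 24 h and at 29.0 and 30.2 eRPKM at 48 h, and with OHT at 25.2 and 24.7 eRPKM at 24 h and at 30.8 and 30.6 eRPKM at 48 h. It was higher at 48 than at 24 h in all 4 treatments, and its siRAD21 and siCtrl libraries overlapped in 3 of 4 comparisons. At 48 h with OHT both siRAD21 libraries were above the 3 controls.

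STAG2 passed the test in no siRAD21 comparison. Its log2 fold change had a 95% interval of -0.060 to 0.22 at 24 h, -0.15 to 0.13 at 24 h with OHT, -0.13 to 0.12 at 48 h and -0.015 to 0.24 at 48 h with OHT, where it passed without siCtrl OHT 48 h replicate 2 (0.16, adjusted p = 0.0432). From 24 to 48 h STAG2 rose by 0.20 ± 0.059 in siCtrl cells (adjusted p = 0.0140) and by 0.17 ± 0.059 in siCtrl OHT cells (adjusted p = 0.0291), and neither passed in a fit of only the groups compared (adjusted p = 0.0721 and 0.0738). The former did not pass without siCtrl 24 h replicate 1 (adjusted p = 0.183) or siCtrl 48 h replicate 2 (0.0533). The latter did not pass without siCtrl OHT 24 h replicate 1 (adjusted p = 0.0691) or 2 (0.168), or siCtrl OHT 48 h replicate 2 (0.111).

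Counted over the 5 subunits, siRAD21 changed 1 DEG at 24 h (RAD21), where 8.43% of all genes were DEGs, and 2 at 24 h with OHT (RAD21 and SMC1A), against 6.47%. At 48 h RAD21 alone was a DEG, without OHT against 23.7% of all genes and with OHT against 16.2%. By the adjusted p alone, 2 subunits passed at 24 h (25.8% of all genes), 2 at 24 h with OHT (20.0%), 3 at 48 h (57.7%) and 3 at 48 h with OHT (45.2%). These counts include RAD21, the target of the siRNAs. Of the other 4 subunits, 1, 1, 2 and 2 passed in these comparisons, in the same order. From 24 to 48 h in control cells 3 subunits passed without and 3 with OHT (RAD21, SMC1A and STAG2), where 45.2% and 41.4% of all genes did, and none was a DEG, against 12.4% and 10.5%. In the mean over the 4 siRAD21 comparisons RAD21 was the only DEG among the subunits, against 11.1% of all genes. The effect of siRAD21 at 48 h differed by adjusted p from that at 24 h for 2 subunits (RAD21 and SMC1A, 21.6% of all genes), and with OHT for 1 (RAD21, 12.9%). For SMC3 this difference was -0.20 ± 0.068 (adjusted p = 0.0553). It passed with voom (adjusted p = 0.0393), with duplicate removal undone (0.0455) and without siCtrl 48 h replicate 3 (0.0435) or siCtrl OHT 48 h replicate 1 (0.0270) or 3 (0.0427).

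**Figure D1:**
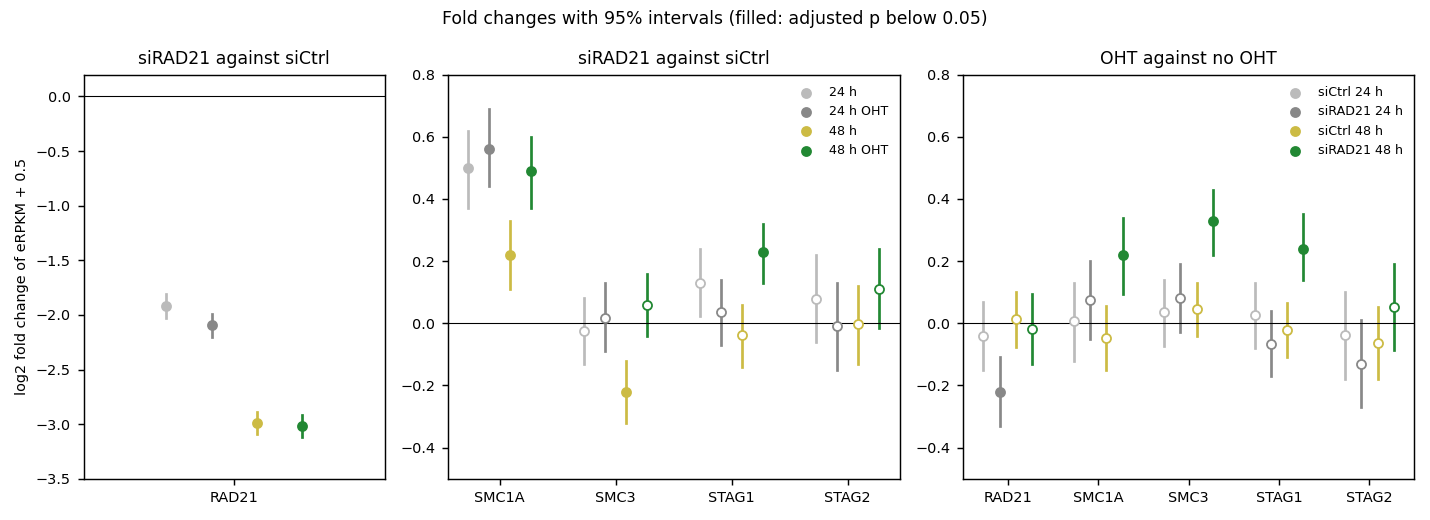
Log2 fold change on the log2(eRPKM + 0.5) scale (vertical axis) with its 95% interval, for RAD21 (left) and the other 4 subunits (middle) in siRAD21 against siCtrl cells, and for all 5 subunits with OHT against without (right). Filled points have an adjusted p below 0.05; SMC1A is above 0 in all 4 siRAD21 comparisons, and SMC1A, SMC3 and STAG1 are above 0 with OHT in siRAD21 cells at 48 h.

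The comparisons with OHT ask whether the ring subunits changed with OHT, which activates MycER, in control and in RAD21-depleted cells. As all groups carry the fusion, effects of OHT itself cannot be told apart from those of MycER. In siCtrl cells no subunit passed the test, at 24 h (26.5% of all genes passed and 8.78% were DEGs) or at 48 h (53.3% and 17.9%). At 48 h, where the groups have 3 libraries each, the 95% intervals of the log2 fold change were -0.077 to 0.10 for RAD21, -0.15 to 0.054 for SMC1A, -0.042 to 0.13 for SMC3, -0.11 to 0.064 for STAG1 and -0.18 to 0.051 for STAG2.

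In siRAD21 cells at 48 h, OHT was followed by higher levels of 3 of the 5 subunits. SMC3 rose by 0.33 ± 0.050 (limma, adjusted p = 7.23e-05, and by 0.16 after quantile normalization), STAG1 by 0.24 ± 0.049 (adjusted p = 0.000778) and SMC1A by 0.22 ± 0.057 (adjusted p = 0.00459, but 0.185 after quantile normalization). In this comparison 60.4% of all genes passed the test, 30.5% of all genes upwards, and 28.6% were DEGs, among which there was no subunit. RAD21, already depleted, had a log2 fold change of -0.017 ± 0.051, and STAG2 one of 0.053 ± 0.065.

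SMC3 in siRAD21 cells with OHT was within or just above the range of the control cells at 48 h, at 47.4 and 49.1 eRPKM against 37.9 and 38.8 without OHT, and 43.3 to 48.6 in the siCtrl and siCtrl OHT libraries. STAG1 overlapped its control without OHT and was above it with OHT. In siRAD21 cells at 24 h RAD21 alone passed, falling by 0.22 ± 0.051 with OHT (adjusted p = 0.00425), where 35.2% of all genes passed and 11.9% were DEGs.

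Markers of cell type also moved with OHT. At 48 h 4 of the 5 mesenchymal markers fell in siCtrl cells and 4 in siRAD21 cells (53.3% and 60.4% of all genes passed in either direction), with log2 fold changes of -1.13 and -1.13 for FN1, -0.91 and -1.84 for COL1A1 and -0.84 and -1.33 for RUNX2. Their summed level was 275 to 322 eRPKM in siCtrl, 222 to 251 in siCtrl OHT, 316 in both siRAD21 and 236 to 238 in siRAD21 OHT libraries. The epithelial marker EPCAM rose by 1.22 in siCtrl cells (limma, adjusted p = 2.51e-06) and also in siRAD21 cells (adjusted p = 5.09e-05). CDH1 went the other way in siRAD21 cells, with a log2 fold change of -0.45 (adjusted p = 0.0345). In siCtrl cells that of CDH1 was 0.31 (adjusted p = 0.0717). The epithelial markers summed to 5.07 to 5.89 eRPKM in siCtrl, 11.6 to 14.2 in siCtrl OHT, 3.63 to 5.04 in siRAD21 and 7.68 to 7.85 in siRAD21 OHT libraries. Their part in the changes of the subunits was not tested.

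The interaction of siRNA and OHT, the effect of siRAD21 with OHT minus that without, was tested directly. At 48 h it was 0.28 ± 0.065 for SMC3 (limma, adjusted p = 0.00930), 0.27 ± 0.074 for SMC1A (adjusted p = 0.0248) and 0.26 ± 0.064 for STAG1 (adjusted p = 0.0116), all positive, and 10.0% of all genes passed in this direction. It was 0.11 ± 0.083 for STAG2 (adjusted p = 0.372) and -0.029 ± 0.066 for RAD21 (adjusted p = 0.799). With both directions 17.3% of all genes passed and 7.30% were DEGs, none of them a subunit.

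The interaction for SMC1A did not pass with the siRAD21 OHT 48 h libraries averaged (adjusted p = 0.0785) or after quantile normalization (0.18, adjusted p = 0.0968). It was also lost without siCtrl 48 h replicate 3 (adjusted p = 0.0505), siRAD21 48 h replicate 1 (0.102), or siRAD21 OHT 48 h replicate 1 (0.0968) or 2 (0.0576). That for STAG1 had an adjusted p of 0.0690 without siRAD21 OHT 48 h replicate 1, and that for SMC3 passed under all alternatives tried. At 24 h 0 of 14993 genes (0%) had an adjusted p below 0.05 for the interaction, as tested with limma, and 906 had an unadjusted p below 0.05. Voom on the recovered reads called 19 genes there, none of which was a subunit. Over the 4 comparisons with OHT the mean effect passed for SMC3, at 0.12 ± 0.024 (adjusted p = 0.000413, but 0.396 after quantile normalization), and for RAD21, at -0.067 ± 0.024 (adjusted p = 0.0254), where 69.5% of all genes passed and 14.9% were DEGs. The latter did not pass with median centring (-0.038, adjusted p = 0.244), with voom (adjusted p = 0.0810), or without siCtrl 24 h replicate 1, siCtrl OHT 24 h replicate 1, siRAD21 24 h replicate 2 or siRAD21 OHT 24 h replicate 2 (adjusted p = 0.0523 to 0.0731).

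The ratio of partner subunits within a library does not depend on the scaling between libraries. The ratio of SMC1A to SMC3 was 0.427 ± 0.0252 (SD, n = 2) in siCtrl cells at 24 h and 0.525 ± 0.0343 (n = 3) at 48 h. It was 0.617 ± 0.00730 (n = 2) in siRAD21 cells at 24 h and 0.716 ± 0.00242 (n = 2) at 48 h. With OHT it was 0.418 ± 0.0259 (n = 2) in siCtrl and 0.615 ± 0.0441 (n = 2) in siRAD21 cells at 24 h, and 0.492 ± 0.0186 (n = 3) in siCtrl and 0.665 in siRAD21 cells at 48 h.

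The SMC1A share of the pair was thus higher with siRAD21 in all 4 combinations of OHT and time. The mean log2 difference was 0.49, or 1.41-fold (two-sided exact permutation test within strata, p = 0.000278, the smallest that its 3600 arrangements allow, and 0.000833 adjusted over 6 tests). These arrangements treat the siRAD21 OHT 48 h libraries as 2 samples. With their mean as 1 sample the exact permutation p was 0.000694, the smallest of 1440 arrangements, and the adjusted p 0.00139. It was also higher at 48 h than at 24 h, by 0.21 (exact permutation p = 0.000556, adjusted p = 0.00111). With OHT the difference was -0.059 (exact permutation p = 0.0866, adjusted p = 0.0866), below 0 in all 4 combinations.

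The ratio of STAG1 to STAG2 differed between the times. It was 0.891 ± 0.0194 (n = 2) in siCtrl cells at 24 h against 0.756 ± 0.0226 (n = 3) at 48 h, and 0.924 ± 0.0148 (n = 2) in siRAD21 cells at 24 h against 0.738 ± 0.0381 (n = 2) at 48 h. With OHT it was 0.934 ± 0.0209 (n = 2) in siCtrl cells at 24 h against 0.777 ± 0.0383 (n = 3) at 48 h, and 0.965 ± 0.0107 (n = 2) in siRAD21 cells at 24 h against 0.843 at 48 h.

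STAG1 was below STAG2 in every group mean, and the gap was wider at 48 h in all 4 combinations, with a mean log2 difference of -0.26 (exact permutation p = 0.000278, adjusted p = 0.000833). With OHT the ratio was higher by 0.091 on the log2 scale (exact permutation p = 0.00417, adjusted p = 0.00625), again in all 4 combinations. With the pair as 1 sample the adjusted p-values by exact permutation were 0.00139 for time in both ratios and 0.00833 for OHT in this one. With siRAD21 the difference was 0.046 (exact permutation p = 0.0781, adjusted p = 0.0866), above 0 in 3 of 4 combinations (adjusted p = 0.132 with that pair as 1 sample), and it passed in 2 of the tests that left out a library (without siCtrl 48 h replicate 3 or siRAD21 48 h replicate 2, with adjusted p-values of 0.0428 and 0.0142).

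Ranked by level, the siCtrl groups had RAD21 first and SMC3 next, and in the siRAD21 groups SMC3 was first and RAD21 last. In siCtrl cells at 48 h there were 2.08 ± 0.0193 (SD, n = 3) RAD21 eRPKM per SMC3 eRPKM, and in siRAD21 cells 0.293 ± 0.00246 (n = 2). The highest group mean was 8.45 times the lowest for RAD21, 1.63 times for SMC1A, 1.26 times for SMC3, 1.23 times for STAG2 and 1.19 times for STAG1.

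The profiles over the 8 groups were compared by the root mean square difference of the log2 group means, each centred on its own mean. Among the subunits the smallest difference was that of SMC3 and STAG1, at 0.0836, and RAD21 was at 1.26 or more from each of the others. SMC3 and STAG1 varied by only 0.0978 and 0.0823 around their own means, so their small difference does not show a shared profile. Of 10901 genes with a mean of at least 5 eRPKM, the nearest to RAD21 were NXT2 at 0.258, CLDN1 at 0.361 and DESI2 at 0.436. These distances are large beside those of the other subunits, as RAD21 itself varied by 1.28 around its mean.

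The nearest to SMC1A were ARG2 at 0.0581, IL6ST at 0.0710 and VHL at 0.0881, and 8 genes lay within 0.1 of it. The profiles of the other subunits were common, with 934 genes within 0.1 of SMC3 (the nearest being CUTA, PCBD1 and ATP5J2), 535 within 0.1 of STAG1 (PRC1, CALB2 and GTF2H5) and 565 within 0.1 of STAG2 (among them TOPORS and RPL13AP6). These are descriptions over 8 group means, which share libraries and scaling.

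Cohesin works with factors that load, acetylate, protect and release it, and 13 such genes were examined. In siRAD21 cells at 48 h, 2 of the 13 rose (27.2% of all genes did) and 8 fell (30.5% of all genes), with a median log2 fold change of -0.25 against -0.014 over all genes. MAU2, which loads cohesin together with NIPBL, was the one DEG that rose, by 0.51 ± 0.067 (limma, adjusted p = 1.55e-05), and NIPBL itself rose by 0.33 ± 0.11 (adjusted p = 0.0154). The DEGs that fell were CDCA5 (sororin, which protects cohesion) by 0.78 ± 0.052, SGO1 (listed as SGOL1, shugoshin, which guards centromeric cohesin) by 0.68 ± 0.061, ESCO2 (an SMC3 acetyltransferase) by 0.58 ± 0.043 and ESPL1 (separase) by 0.51 ± 0.078. On a scale of log2(eRPKM + 1), 3 of the 13 genes were DEGs instead of 5.

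With OHT at 48 h, 7 of the 13 fell (22.8% of all genes did) and MAU2 was the only DEG, rising by 0.55 (adjusted p = 1.41e-05). After quantile normalization none of the 13 was a DEG with OHT. WAPL, which releases cohesin, fell by 0.24 ± 0.039 without OHT (adjusted p = 0.000136) and CTCF, which anchors its loops, by 0.42 ± 0.044 (adjusted p = 2.18e-06). Of the meiotic paralogs of the ring, SMC1B and RAD21L1 were below the level tested, and STAG3 and REC8, with means of 1.68 and 3.30 eRPKM, passed in none of the siRAD21 comparisons.

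Condensin and the SMC5/6 complex are built on the same plan of an SMC pair and a kleisin. All 8 condensin genes fell in siRAD21 cells at 48 h, 6 of them as DEGs (11.2% of all genes were DEGs that fell), with a median log2 fold change of -0.64. Among them NCAPD3 fell by 1.16 ± 0.068, NCAPG2 by 0.93 ± 0.055 and NCAPH, a condensin kleisin, by 0.85 ± 0.044. With OHT 6 of the 8 fell (22.8% of all genes did) and 2 were DEGs (1161 of 14993 genes were DEGs that fell). The median was -0.24.

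In the SMC5/6 complex, 3 of 7 genes fell at 48 h (30.5% of all genes did) and 1, EID3, rose as a DEG (12.6% of all genes) by 0.78 ± 0.25 (adjusted p = 0.0156), at a mean of 3.28 eRPKM. The median was -0.079. No gene of this complex was a DEG without siCtrl 48 h replicate 2 or among genes with a mean of at least 5 eRPKM. With log2(eRPKM + 0.1), median centring, duplicate removal undone or voom, 2 were DEGs. At 24 h 0 of these 15 genes were DEGs, where 8.43% of all genes were, and with OHT 0 were, where 6.47% were.

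Genes of S phase also changed in these comparisons. All 10 of them (MCM2 to MCM7, PCNA, CDC6, CCNE2 and MKI67) fell in siRAD21 cells at 48 h (30.5% of all genes did), with a median log2 fold change of -0.68, and their summed level was 352 to 358 eRPKM against 517 to 532 in siCtrl cells. With OHT 9 of the 10 rose in siRAD21 cells at 48 h (30.5% of all genes did). MKI67 went the other way, with a log2 fold change of -0.33 (limma, adjusted p = 0.0116). The summed level of the 10 genes was 507 eRPKM in both siRAD21 OHT libraries at 48 h against 549 to 569 in siCtrl OHT cells. The interaction passed for 9, all upwards (10.0% of all genes). SMC3 was likewise lowest in siRAD21 cells without OHT among the groups at 48 h. Its mean was highest in siRAD21 OHT cells, where its libraries overlapped those of siCtrl OHT cells (limma, adjusted p = 0.322). The summed level of the S phase genes was below both control groups there. Against siCtrl OHT cells 7 of the 10 were lower by adjusted p (22.8% of all genes were) and 0 were higher. The other 3 did not pass, with log2 fold changes of 0.02 for MCM6, 0.05 for MCM7 and 0.02 for PCNA (limma, adjusted p = 0.793, 0.448 and 0.836). The part of the S phase genes in the change of SMC3 was not tested.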

How the data were processed

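The authors removed ribosomal RNA, prepared libraries with the TruSeq kit, aligned reads to hg19 with TopHat2 (2.0.8, with featureCounts 1.4.5, in the submitters' processing notes), removed PCR duplicates and deposited eRPKM values, that is RPKM over exons, for 23399 genes. Groups came from the labels, and 0 columns lacked a sample. The members and gene lists were chosen with earlier results of these data known.

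Values were tested as log2(eRPKM + 0.5) with limma 3.58.1 in R 4.3.3: group means of all 18 libraries in 1 fit, a variance trend, no block, genes with a mean of at least 1 eRPKM, and Benjamini-Hochberg adjustment per comparison over the 14993 genes tested. The study used DESeq2 on counts with the same thresholds for a DEG, whereas the deposited RPKM values are not counts. Fold changes on this scale understate those of low genes. Intervals are 95% intervals of the fit. Ratios of eRPKM were tested by exact permutation of labels within strata.

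Read numbers and the depth of each library could be worked back from the eRPKM steps: all 22040 genes above 0 gave whole numbers, at most 8.1e-06 away, for 99.98 to 99.99% of each depth. Undoing the removal of duplicates assumed single-end reads. Named genes were the 5 subunits, the 3 genes nearest to each in profile (1 of which is not reported here), and listed genes that were DEGs at 48 h, with a few others of the lists chosen after their values were seen (NIPBL, WAPL, CTCF). Deviations from group means were compared between libraries of the same replicate number. They correlated at 0.258, 0.13 and 0.157 between siCtrl and siCtrl OHT at 48 h. With siRAD21 at 48 h they correlated at 0.099 and 0.146 for siCtrl and at 0.168 and 0.111 for siCtrl OHT. Between the other groups the values were -0.169 to 0.0714. Libraries of different numbers were not compared, so whether the numbers mark pairs was not determined.

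Alternatives were pseudocounts of 1 and 0.1, other filters (any value above 0, a mean of at least 5 eRPKM), median centring, quantile normalization, only the groups compared, a replicate block, no trend, a robust fit, leaving out each library, averaging the siRAD21 OHT 48 h libraries, undoing duplicate removal, voom on recovered reads and no fold change threshold. The procedure was tested on simulated data. Tables were made with pandas 2.3.3 in Python 3.11.15, and figures with matplotlib 3.10.9. Binding data were not analysed here.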

Additional observations from a re-analysis of the deposited data

Results flagged for a closer look

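A difference between the effects in separate groups, tested as its own contrast with limma, was found for SMC1A (0.27 on the log2 scale), SMC3 (0.28) and STAG1 (0.26), whose response to siRAD21 at 48 h was higher with OHT than without. The effect of siRAD21 differed between 48 and 24 h for RAD21, by -1.08 without and by -0.93 with OHT, and for SMC1A, by -0.27 without OHT. The adjusted p-values are given with the results, as are the libraries and settings without which the calls for SMC1A and STAG1 were lost. No group has the 4 libraries needed to look for a library that stands apart within its group.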

How the results depend on the processing

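All calls that RAD21 fell and SMC1A rose with siRAD21 kept their direction and an adjusted p below 0.05 under the 31 alternatives tried, with log2 fold changes of -3.40 to -1.89 for RAD21 and 0.20 to 0.65 for SMC1A. The number of subunits called as DEGs depended on SMC1A, which lies near the threshold. At 24 h it was 2 instead of 1 with a pseudocount of 0.1, quantile normalization, duplicate removal undone or voom, and 1 to 2 when leaving out single libraries (2 without siCtrl 24 h replicate 2 or siRAD21 24 h replicate 2). At 24 h with OHT it was 1 to 2 (1 without siCtrl OHT 24 h replicate 2), and at 48 h with OHT 2 instead of 1 with the replicate block or duplicate removal undone, and 1 to 2 when leaving out libraries (2 without siRAD21 OHT 48 h replicate 2). From 24 to 48 h in siCtrl OHT cells it was 1 instead of 0 (RAD21) with median centring or duplicate removal undone. With no fold change threshold the counts were 2 at 24 h, 3 at 48 h, 3 at 48 h with OHT, 1 and 3 for OHT in siRAD21 cells at 24 and 48 h, 3 and 3 for time, 3 for the interaction at 48 h, 2 for 48 against 24 h, and 3 and 2 for the mean effects of siRAD21 and OHT. The ratio tests kept their calls, except that leaving out libraries gave 0.032 to 0.059 for STAG1 to STAG2 by siRNA and -0.078 to -0.041 for SMC1A to SMC3 by OHT, which passed without siRAD21 OHT 24 h replicate 1.

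The replicate block, in a paired reading of the replicate numbers, kept 78 of 80 fold changes of the subunits on their side of the test; SMC1A and STAG2 from 24 to 48 h in siCtrl OHT cells did not pass (adjusted p = 0.0834 and 0.0521). For siCtrl OHT against siCtrl at 48 h the block changed no call, and the ratio of SMC1A to SMC3 by siRNA was 0.50 with the block.

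Fold changes that changed sign (24 results) had adjusted p-values above 0.05 before and after. With quantile normalization these were RAD21 for OHT at 48 h in siCtrl (-0.063) and siRAD21 cells (0.045) and its interaction (0.11), SMC3 with siRAD21 at 24 h (0.028) and on average (0.0063) and for OHT at 24 h in siCtrl (-0.015) and siRAD21 cells (-0.011) and at 48 h in siCtrl cells (-0.050), STAG1 over time in siCtrl cells (0.047), and STAG2 with siRAD21 at 24 h with OHT (0.013) and at 48 h (0.076) and for OHT at 48 h in siRAD21 cells (-0.079). With median centring they were RAD21 for OHT at 48 h in siRAD21 cells (0.011), SMC3 over time (0.044, and 0.077 with OHT), and STAG1 for OHT at 48 h in siCtrl cells (0.011) and over time (0.050, and 0.022 with OHT). With duplicate removal undone they were RAD21 for OHT at 48 h in siCtrl cells (-0.0026) and STAG2 with siRAD21 at 48 h (0.0035).

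When libraries were left out, sign changes came within these ranges. For OHT at 24 h in siCtrl cells they were -0.090 to 0.0061 (RAD21), -0.076 to 0.090 (SMC1A), -0.021 to 0.077 (STAG1) and -0.11 to 0.032 (STAG2). For OHT at 48 h in siCtrl cells they were -0.019 to 0.049 (RAD21) and -0.043 to 0.0043 (STAG1). For siRAD21 at 24 h with OHT they were -0.0034 to 0.040 (SMC3) and -0.036 to 0.017 (STAG2), and at 48 h -0.034 to 0.039 (STAG2). Over time they were -0.085 to 0.013 (STAG1) and, with OHT, -0.067 to 0.010 (SMC3). For the interaction they were -0.066 to 0.0021 (RAD21, 48 h) and -0.016 to 0.15 (SMC1A, 24 h), and for 48 against 24 h with OHT -0.16 to 0.0065 (SMC1A) and -0.0021 to 0.076 (SMC3).

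With a mean of at least 5 eRPKM, where fewer genes are tested, DEGs over all genes with siRAD21 at 48 h were 2289 instead of 3559 and with OHT 1507 instead of 2431. Median centring turned the split over time in siCtrl cells from 829 higher and 1036 lower to 1139 and 658. Of the subunits, the directions that it turned are given above. Groups of 2 to 3 libraries and 403 to 3639 reads per subunit and library set the precision, and the cause of these dependences was not tested.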
